A study of Mus musculus with 11 samples.

Results

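ΔUNG_2 is a clone of the mouse melanoma line B16F10 that the study labels as a UNG knockout. Here its RNA under the vehicle DMSO is set against that of the Cas9 control line, which the labels call wild type, under the same vehicle. The comparison takes 4 of the series' 11 libraries, 2 of ΔUNG_2 and 2 of the control, all harvested at 48 h. Its members are the 11237 genes, of 14528 listed, that had a mean of at least 0.5 FPKM over these 4 libraries; FPKM divides the fragments of a gene by its length and by the depth of the library. Further groups are used beside it: ΔUNG (the other knockout clone) under DMSO with 2 libraries, ΔUNG_2 under 5 µM of the ATR inhibitor AZD6738 (ATRi) with 1 library, and the control under ATRi with 2. Each knockout line is 1 clone, so loss of UNG and other differences between a clone and the control line cannot be told apart in this comparison. The spread behind every p-value was taken from all 11 libraries, which include ΔUNG under ATRi with 2 libraries. The titles speak of biological replicates without saying whether each was grown apart, so the p-values reflect only how far the libraries of the series varied.

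Uracil-DNA glycosylase, the product of Ung, cuts uracil out of DNA and opens the base excision repair pathway. Tumour cells can also read nucleic acids as a danger sign. Sensors of RNA and DNA switch on type I interferon, which acts through its receptor and the kinases JAK1 and TYK2 to raise a large set of interferon-stimulated genes. B16F10 cells are pigmented, and their lineage is set by factors such as MITF and SOX10.

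The libraries held 18575144 to 23364134 fragments behind the FPKM in ΔUNG_2 and 18318111 to 18383816 in the control. Since a gene at 0 may still have had up to 3 fragments, levels under 0.164 FPKM for a length of 1 kb could not be told from 0, counting error alone considered. Replicates differed by more than counting noise (chi-square over its degrees of freedom, 4.83 for the ΔUNG_2 pair and 5.25 for the control pair), so each counts as a library of its own. The other pairs, which share in the estimate of the spread, varied more. Their values were 8.89 for ΔUNG under DMSO, 12.65 for ΔUNG under ATRi and 28.69 for the control under ATRi. The 57-base gene Gm23935 took 25.4% and 23.5% of the FPKM sum in ΔUNG_2, against 19.2% and 16.1% in the control. The FPKM sum, this gene included, was 366442 and 353107 in ΔUNG_2 and 332551 and 322841 in the control. The rescaling to equal sums given below keeps this gene in the sum, and its part in the results was not tested beyond that. All 7 melanocyte markers were above 1 FPKM in every library, and their summed level was 7602 and 7681 FPKM in ΔUNG_2 and 7460 and 7220 FPKM in the control. Markers of fibroblasts summed to 8.14 to 9.58 FPKM over the 4 libraries, led by Pdpn, and those of keratinocytes and endothelium to at most 1.44. The 3 macrophage markers in the table, of 11 listed, summed to 3.28 and 3.16 FPKM in ΔUNG_2 and 5.39 and 4.49 FPKM in the control, led by Cd68, and 1 of them was at 0 in each library. Both tested ones were lower in ΔUNG_2 without overlap, and neither passed. Groups did not overlap, in either direction, in 6607 of all 11237 genes tested. The part of the macrophage markers in the falls below was not tested. In bulk RNA, fewer cells of a type and less RNA per cell cannot be told apart.

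Ung, on chromosome 5 from 114130386 to 114139323 in the deposited table's coordinates, had 2.01 and 1.78 FPKM in ΔUNG_2 and 2.86 and 2.48 FPKM in the control. The groups did not overlap, as held for 6607 of the 11237 genes tested. The difference for Ung (log2 -0.40 ± 0.23 SE) did not pass, with an adjusted p of 0.353 by limma. Its RNA therefore gives no firm check of the label, and RNA does not measure the protein.

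Across all genes, 932 of 11237 (8.29%) differed between ΔUNG_2 and the control at an adjusted p under 0.05 by limma on log2(FPKM + 0.5). Of these, 507 (4.51% of the genes tested) were higher and 425 (3.78%) were lower in ΔUNG_2; these shares are the background for every list below. Most changes were modest. The median called rise was 0.51 on the log2 scale and the median called fall -0.55, 60 genes rose and 87 fell at least 2-fold, and 7 rose and 15 fell at least 4-fold. The number of rises depended on the way libraries were scaled. When every library was scaled to an equal FPKM sum, 122 genes were higher and 276 lower, and the median of all genes was -0.13 in place of -0.01. Scaled by median ratios instead, 511 genes were higher and 469 lower. With the spread taken from only the 4 libraries compared, 703 genes were higher and 601 lower. The counts also depend on having both libraries of a group. Without ΔUNG_2 replicate 1, 160 genes were higher and 157 lower, without ΔUNG_2 replicate 2 154 and 132, without control replicate 1 228 and 164, and without control replicate 2 236 and 154. Of the 932 calls, 114 rises and 108 falls were made in all 4 of these smaller fits. Such calls are termed stable below, and other genes are named with the library without which the call was lost. Each smaller fit also has less data, so a lost call need not mean a changed difference. Ccnd1, for example, lost its call in some of these fits while its log2 difference stayed between -0.45 and -0.41. Counts given below for the 4 smaller fits follow that same order of left-out libraries. In simulated data of this design, over 11328 genes, 80.3% of genes changed 1.5-fold and 98.5% of those changed 2-fold were recovered. Of the unchanged genes, 6 were called. The simulation gave all genes and groups the same spread beyond counting noise, so these shares may not hold for the real libraries.

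**Figure D1:**
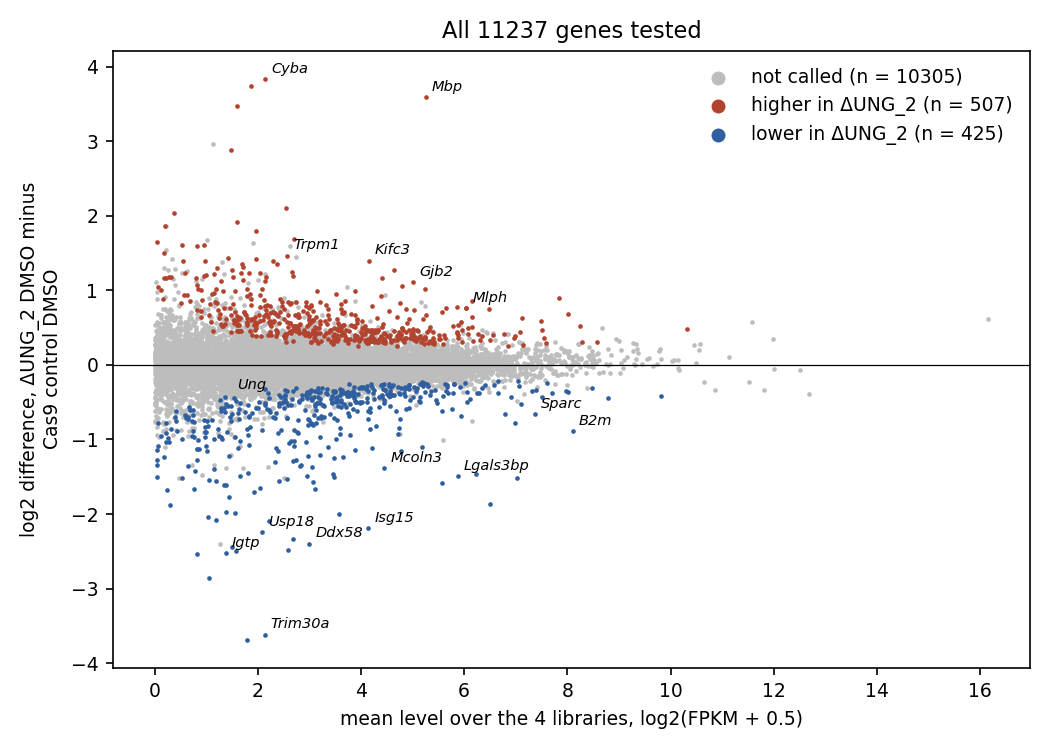
Log2 difference of ΔUNG_2 DMSO minus Cas9 control DMSO (vertical axis) against the mean level over the 4 libraries (horizontal axis, log2(FPKM + 0.5)) for the 11237 genes tested, 1 point per gene. The 507 genes called higher are red and the 425 called lower blue; the interferon-stimulated gene Trim30a lies near the bottom beside the unlabelled pseudogene Gm9628, Cyba and Mbp at the top.

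Genes of the interferon response made up most of the largest falls once predicted genes, pseudogenes and genes under 200 bases were left out. Before that the largest was the pseudogene Gm9628, at 0 in both ΔUNG_2 libraries and at 6.10 and 5.78 FPKM in the control. Of 60 tested interferon-stimulated effectors, 47 fell and none rose in ΔUNG_2, against 3.78% falls among all genes; the median of the list was -1.10, against -0.01 for all genes. The count was 36, 32, 32 and 37 without ΔUNG_2 replicate 1 or 2 or control replicate 1 or 2, and 45 at equal FPKM sums; 32 of the falls were stable. Of the 12 largest named falls in the whole comparison, all but Hspb1, a small heat shock protein gene, belong to the response to type I or type II interferon. The list was drawn up with results of these data known, so its direction is not independent evidence.

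The promoters of Trim30a, Isg15, Ifit1 and Bst2 are printed because each window holds matches to a sequence pattern, the interferon-stimulated response element. Not all genes of the list hold one. Factors of the IRF family bind repeats of GAAA spaced by 2 bases. The sequences are RefSeq windows of the build GRCm38.p6, from 250 bases before to 50 after an annotated start, in the direction of the gene; capitals mark matches to GAAANNGAAA on either strand. They cover chr7:104446076-104446375 for Trim30a, chr4:156200769-156201068 for Isg15, chr19:34640639-34640938 for Ifit1 and chr8:71537423-71537722 for Bst2. Where a gene has several windows, the one with the most matches is printed. The deposited coordinates of Trim30a run from 104409025 to 104465193, so its window lies inside the gene if both use the same build. Ifit1 lies on the plus strand and the others on the minus strand.
Trim30a: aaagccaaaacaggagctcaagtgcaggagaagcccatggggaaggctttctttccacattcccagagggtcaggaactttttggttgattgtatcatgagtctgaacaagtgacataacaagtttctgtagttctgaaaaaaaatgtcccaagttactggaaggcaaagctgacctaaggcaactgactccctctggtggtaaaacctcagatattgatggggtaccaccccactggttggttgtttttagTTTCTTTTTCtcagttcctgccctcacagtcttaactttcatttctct
Isg15: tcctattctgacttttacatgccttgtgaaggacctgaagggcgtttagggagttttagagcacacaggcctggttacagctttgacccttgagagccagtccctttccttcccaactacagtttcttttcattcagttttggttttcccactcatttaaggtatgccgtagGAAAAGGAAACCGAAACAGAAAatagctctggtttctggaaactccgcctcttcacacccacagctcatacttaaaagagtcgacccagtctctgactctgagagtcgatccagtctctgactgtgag
Ifit1: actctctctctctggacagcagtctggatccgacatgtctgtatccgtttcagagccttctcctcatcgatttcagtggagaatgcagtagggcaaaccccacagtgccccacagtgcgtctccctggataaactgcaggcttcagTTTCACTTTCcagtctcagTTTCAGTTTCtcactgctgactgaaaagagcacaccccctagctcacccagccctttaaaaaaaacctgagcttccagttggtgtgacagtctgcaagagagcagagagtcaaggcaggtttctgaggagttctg
Bst2: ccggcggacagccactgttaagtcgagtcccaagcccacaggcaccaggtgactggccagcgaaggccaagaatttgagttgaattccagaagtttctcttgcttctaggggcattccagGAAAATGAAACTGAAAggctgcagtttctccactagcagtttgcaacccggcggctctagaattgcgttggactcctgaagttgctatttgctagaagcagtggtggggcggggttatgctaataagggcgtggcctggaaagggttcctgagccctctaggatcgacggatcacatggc
In Isg15, 3 overlapping matches begin 78 bases before the start, in Ifit1 2 separate ones begin 104 and 85 bases before it on the opposite strand, and in Bst2 2 overlapping ones begin 130 bases before it. The single match of Trim30a lies just past the start, on the opposite strand. Of the 11237 genes tested, 8460 matched a promoter in the table, and 303 of these (3.58%) held at least 1 match in any of their windows; over all windows of the table the share was 3.44%. Among genes called lower, 44 of 312 (14.1%) held a match, among those called higher 15 of 397 (3.78%), and among the rest 244 of 7751 (3.15%). Of the interferon-stimulated effectors called lower, 23 of 37 (62.2%) held one, and of those not called 3 of 11 (27.3%). Outside that list it was 21 of 275 genes called lower (7.64%). The genes called lower outside it still include interferon-induced genes of other lists, such as Ddx58, Irf9, Igtp and Cxcl10. The share is therefore not one for genes outside the interferon response. The effectors were listed as interferon-stimulated genes with results of these data known, so their share of matches is not independent evidence. A match describes letters in a window and is not a measured binding site.

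By role, the sensors and their regulators changed in part. Of 13 genes of interferon induction and sensing, 5 fell and none rose. Ddx58 encodes RIG-I, a cytosolic sensor of viral RNA; it had 2.29 and 1.80 FPKM in ΔUNG_2 and 13.3 and 12.4 FPKM in the control. Both ΔUNG_2 libraries were far below both control libraries (log2 -2.40 ± 0.15 SE, limma adjusted p = 4.06e-05). Ifih1, the related sensor MDA5, had 1.31 and 1.44 against 4.47 and 4.81 FPKM (-1.46 ± 0.13, limma adjusted p = 0.000269). Dhx58, the regulator LGP2, fell by 1.62 and Trim25, a ubiquitin ligase that acts on RIG-I, by 1.21 on the log2 scale; these 4 falls were stable. The shared adaptor Mavs had 13.7 and 14.7 FPKM in ΔUNG_2 and 13.5 and 12.1 FPKM in the control, and the kinase gene Tbk1 had 11.9 and 11.4 against 11.7 and 11.6 FPKM. Neither passed, nor did Irf3, the factor that TBK1 activates (log2 0.21 ± 0.11, limma adjusted p = 0.300).

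Downstream of the receptor, Irf9 and Usp18 were among the falls, and most members did not pass. Of 18 genes of interferon receptors and JAK-STAT signalling, 5 fell and none rose (3, 4, 4 and 4 in the smaller fits). Irf9, a factor gene of the interferon regulatory family, had 2.49 and 2.54 FPKM in ΔUNG_2 and 9.02 and 7.50 FPKM in the control (log2 -1.53 ± 0.15 SE). Usp18, which both removes ISG15 from proteins and restrains the receptor, had 0.874 and 1.08 against 6.85 and 6.10 FPKM (-2.24 ± 0.13). Both falls were stable. Stat3 fell by 0.51, a call lost without ΔUNG_2 replicate 1 (limma adjusted p = 0.0606) or control replicate 2 (0.0601). The receptor chain Ifnar2 had 6.40 and 7.02 FPKM in ΔUNG_2 and 8.71 and 6.75 FPKM in the control, Jak1 24.8 and 25.0 against 26.8 and 28.5 FPKM, and Tyk2 6.65 and 6.30 against 7.01 and 7.01 FPKM. Their differences, between -0.18 and -0.11 on the log2 scale, did not pass.

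Among the effectors, Trim30a, a Trim family regulator, showed the largest named fall. It had 0.177 and 0.144 FPKM in ΔUNG_2 and 7.38 and 7.83 FPKM in the control, a difference of -3.62 ± 0.19 SE with a limma adjusted p of 2.44e-05. Isg15, the ubiquitin-like modifier, had 6.45 and 5.27 against 31.1 and 25.8 FPKM (-2.19 ± 0.24, limma adjusted p = 0.000815). Ifit1, which binds viral RNA, had 5.04 and 3.61 against 20.1 and 17.1 FPKM (-2.00 ± 0.14). In all 3 the groups lay well apart. Oas1a, which makes the 2-5A messenger that activates RNase L, had 1.48 and 1.14 against 10.8 and 8.46 FPKM (-2.48 ± 0.18), and Oas1g fell by 1.98. Xaf1, a gene linked to cell death, had 0.347 and 0.448 against 4.96 and 4.15 FPKM (-2.49 ± 0.20). Lgals3bp, a secreted glycoprotein, had 30.8 and 29.97 against 90.2 and 82.2 FPKM (-1.49 ± 0.11). Rtp4 fell by 2.33. Reads of Oas1a and Oas1g, and of Trim30a and its relatives, can come from near-identical copies, so their levels are uncertain. Not every member moved: Ifit2 had 15.5 and 16.2 FPKM in ΔUNG_2 and 17.1 and 19.4 FPKM in the control (-0.20 ± 0.09, limma adjusted p = 0.217), and the 13 effectors that did not pass ranged from -0.87 to 0.26.

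The GTPases induced by interferon-gamma, which attack membranes around intracellular pathogens, fell in 6 of 7 tested cases, with a median of -1.54, and all 6 calls were stable. Igtp had 0.169 and 0.373 FPKM in ΔUNG_2 and 3.62 and 4.22 FPKM in the control (log2 -2.53 ± 0.33 SE, limma adjusted p = 0.00201). Irgm2 had 1.40 and 1.11 against 8.23 and 5.91 FPKM (-2.10 ± 0.23), and Gbp3, a guanylate-binding protein gene, 0.800 and 0.676 against 3.93 and 3.52 FPKM (-1.77 ± 0.15). Gbp7 fell by 1.54 and Irgm1 by 0.92. These families hold close relatives, so reads can be shared between them.

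Antigen presentation by MHC class I fell in part, with 6 falls and no rise among 17 genes; the count was 3, 2, 2 and 3 without ΔUNG_2 replicate 1 or 2 or control replicate 1 or 2. B2m, the light chain that every class I molecule needs, had 187 and 198 FPKM in ΔUNG_2 and 370 and 346 FPKM in the control (log2 -0.89 ± 0.09 SE, limma adjusted p = 0.000654). Tapbp, the chaperone tapasin, had 6.01 and 5.32 against 10.2 and 10.2 FPKM (-0.80 ± 0.11, limma adjusted p = 0.00299). These 2 falls were stable. Nlrc5, the class I transactivator, had 0.837 and 0.666 against 0.810 and 0.685 FPKM, and the heavy chain gene H2-K1 10.9 and 10.5 against 8.54 and 12.4 FPKM; neither passed, and reads of H2 genes can be shared among relatives.

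Signals to other cells moved less uniformly. Of 12 chemokine and cytokine genes, 3 fell (2 in each of the smaller fits) and 1 rose. Cxcl10, which attracts activated T cells, had 3.48 and 2.96 FPKM in ΔUNG_2 and 10.2 and 7.17 FPKM in the control (log2 -1.29 ± 0.14 SE, limma adjusted p = 0.000803), and Ccl5 had 6.91 and 7.35 against 15.7 and 13.7 FPKM (-0.99 ± 0.15). The rise was that of Il17b (1.79 ± 0.36), lost without ΔUNG_2 replicate 1 (limma adjusted p = 0.0827) or 2 (0.104). Of 16 NF-kB subunits and targets, 3 fell, with 1, 2, 1 and 1 left without ΔUNG_2 replicate 1 or 2 or control replicate 1 or 2. Relb, a subunit of the non-canonical pathway, had 1.97 and 1.86 against 4.02 and 4.23 FPKM (-0.94 ± 0.13, limma adjusted p = 0.00238) and was stable. The canonical subunit Rela had 21.2 and 21.9 against 24.5 and 25.8 FPKM and did not pass (limma adjusted p = 0.244). Of 8 checkpoint and natural killer cell ligands, 2 rose (0, 0, 1 and 0 in the smaller fits) and 2 fell (0 in each); Cd274, which encodes PD-L1, had 1.81 and 2.13 against 1.90 and 2.72 FPKM and did not pass.

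**Figure D2:**
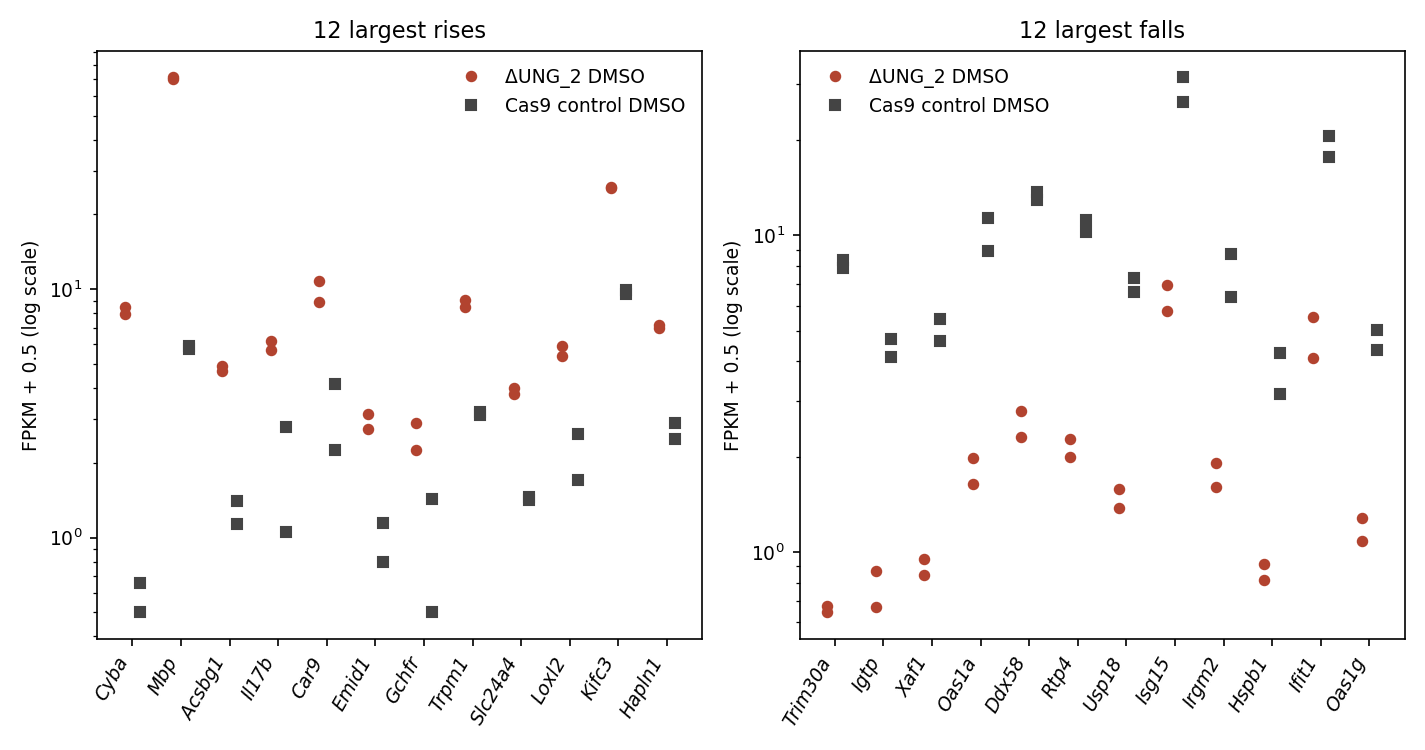
FPKM + 0.5 on a log scale in each ΔUNG_2 DMSO library (red circles) and each Cas9 control DMSO library (grey squares), for the 12 largest named rises (left) and falls (right). Each gene's groups do not overlap; Isg15 has 6.45 and 5.27 FPKM in ΔUNG_2 and 31.1 and 25.8 FPKM in the control.

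Among stress genes outside the interferon response, falls outnumbered rises in the integrated stress response and p53 lists, while most members did not pass. In the integrated stress response, which ATF4 drives when translation or amino acid supply falters, 10 of 33 genes fell and none rose (3.78% fell among all genes), with a median of -0.22. Only 1, 3, 2 and 1 falls were left without ΔUNG_2 replicate 1 or 2 or control replicate 1 or 2, and 6 genes fell at equal FPKM sums. Atf3, a stress-induced repressor, was the stable one, with 17.5 and 15.5 FPKM in ΔUNG_2 and 35.8 and 38.6 FPKM in the control (log2 -1.15 ± 0.12 SE, limma adjusted p = 0.000521). Atf4 itself had 238 and 240 against 253 and 266 FPKM, Ddit3 (CHOP) 61.5 and 66.7 against 77.8 and 82.4 FPKM and Asns 176 and 178 against 205 and 202 FPKM; none of the 3 passed. Of 33 p53 targets, 5 fell (2, 3, 3 and 3 in the smaller fits) and 1 rose (0 in each). Gadd45a, a growth arrest gene that ATF4 and p53 both drive, had 3.86 and 3.08 against 9.13 and 10.1 FPKM (-1.36 ± 0.17, limma adjusted p = 0.00167), and Dcxr, a sugar reductase gene, 14.0 and 13.5 against 22.1 and 20.8 FPKM (-0.63 ± 0.08); both were stable. The cell cycle inhibitor gene Cdkn1a had 53.7 and 49.7 against 60.9 and 55.6 FPKM and did not pass.

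Unfolded protein response chaperones gave 4 rises and no fall among 21 genes (2, 3, 3 and 2 rises in the smaller fits), and no call at equal FPKM sums. Dnajc3, which inhibits the kinase PERK, had 48.3 and 47.4 FPKM in ΔUNG_2 and 34.8 and 35.2 FPKM in the control (log2 0.44 ± 0.06 SE, limma adjusted p = 0.00167; 0.289 after rescaling). The main chaperone Hspa5 had 173 and 169 against 160 and 170 FPKM and did not pass. Among 37 NRF2 and redox genes, 3 rose (1, 3, 2 and 1 in the smaller fits) and 5 fell (2, 2, 3 and 1); the sulfiredoxin gene Srxn1 had 15.6 and 16.2 against 23.5 and 24.03 FPKM (-0.56 ± 0.08), a stable fall, while Nqo1 had 3.58 and 1.80 against 2.04 and 2.49 FPKM. Of 22 apoptosis genes, 3 fell, and 1 in each of the smaller fits. Bcl2, the anti-apoptotic founder of its family, had 3.27 and 3.43 against 6.05 and 5.54 FPKM (-0.71 ± 0.09, limma adjusted p = 0.00153) and was stable.

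Feedback and early response genes of ERK signalling gave 4 rises (1, 0, 1 and 1 in the smaller fits) and 6 falls (3, 3, 5 and 2) among 33, and 0 rises and 6 falls at equal FPKM sums. Dusp10, a phosphatase of JNK and p38, had 1.32 and 1.26 FPKM in ΔUNG_2 and 5.4017 and 5.24 FPKM in the control (log2 -1.70 ± 0.10 SE, limma adjusted p = 3.1e-05). This fall and that of Atf3 were the stable calls. The cyclin D1 gene Ccnd1 fell by 0.43, lost without ΔUNG_2 replicate 1 (limma adjusted p = 0.0512), ΔUNG_2 replicate 2 (0.0630) or control replicate 2 (0.0553). Inhibitors of differentiation diverged. Id2 had 48.1 and 45.5 against 28.0 and 30.7 FPKM (0.67 ± 0.07, limma adjusted p = 0.000611), and Id3 had 2.87 and 2.65 against 6.005 and 7.56 FPKM (-1.15 ± 0.14, limma adjusted p = 0.00122), both stable. Both are classic targets of BMP signalling, and Id2 lies on chromosome 12, which is described below.

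Pigment cell genes changed in both directions. Of 30 genes of melanin synthesis and the melanosome, 7 rose and 3 fell, with 4, 4, 5 and 4 rises without ΔUNG_2 replicate 1 or 2 or control replicate 1 or 2 and the falls were 1, 2, 2 and 1. At equal FPKM sums 3 rose and 3 fell. The list's median was 0.095 and turned to -0.029 after that rescaling. Trpm1, a melanocyte cation channel, had 7.95 and 8.55 FPKM in ΔUNG_2 and 2.61 and 2.71 FPKM in the control (log2 1.47 ± 0.12 SE, limma adjusted p = 0.000165). Mlph, the adaptor that ties melanosomes to myosin, had 81.8 and 82.6 against 48.7 and 47.6 FPKM (0.77 ± 0.06), and Slc24a4, an ion exchanger, 3.51 and 3.27 against 0.954 and 0.914 FPKM (1.44 ± 0.16). Mcoln3, a lysosomal calcium channel, moved the other way, with 12.1 and 10.99 against 31.9 and 30.1 FPKM (-1.39 ± 0.08, limma adjusted p = 3.46e-05). These 4 calls were stable. The enzymes at the centre of pigment synthesis did not pass. Tyr had 34.1 and 35.4 against 32.0 and 31.8 FPKM, Tyrp1 2713 and 2698 against 3191 and 3140 FPKM, and Dct 1458 and 1459 against 1478 and 1399 FPKM.

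Among 18 melanocyte lineage factors and receptors, 5 rose (2, 2, 2 and 3 in the smaller fits) and 3 fell (3, 0, 1 and 2); at equal FPKM sums 1 rose and 3 fell. Kit, the receptor for stem cell factor that melanoblasts need, had 10.2 and 9.62 FPKM in ΔUNG_2 and 5.33 and 5.64 FPKM in the control (log2 0.80 ± 0.09 SE, limma adjusted p = 0.00107). Erbb3, the neuregulin receptor of the neural crest, had 20.6 and 20.5 against 15.5 and 14.1 FPKM (0.46 ± 0.07, limma adjusted p = 0.00391; 0.286 at equal FPKM sums). These 2 were the stable calls. Snai2, a neural crest repressor, fell by 0.92, lost without ΔUNG_2 replicate 2 (limma adjusted p = 0.0527), and Sox9 by 0.71, lost without ΔUNG_2 replicate 2 (0.0851), control replicate 1 (0.0503) or control replicate 2 (0.0691). The master factor genes Mitf, with 69.9 and 71.9 against 62.2 and 72.1 FPKM, and Sox10, with 198 and 207 against 193 and 196 FPKM, did not pass.

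Mbp, known for myelin, was the second largest named rise. It had 69.4 and 70.7 FPKM in ΔUNG_2 and 5.43 and 5.27 FPKM in the control (log2 3.59 ± 0.10 SE, limma adjusted p = 2.59e-07), the smallest adjusted p of the comparison. The 22 glia and nerve genes, Mbp included, gave 4 rises (1, 2, 2 and 3 in the smaller fits) and 2 falls (2, 2, 3 and 2), and 1 rise and 3 falls at equal FPKM sums; Mbp was the only stable rise. The axon guidance gene Sema3b had 19.95 and 19.6 against 30.7 and 30.4 FPKM (-0.62 ± 0.07), and the adhesion gene L1cam 4.19 and 4.01 against 8.33 and 7.48 FPKM (-0.87 ± 0.11), both stable falls.

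Cyba, the p22phox subunit that NADPH oxidases need, was the largest named rise. It had 7.41 and 7.98 FPKM in ΔUNG_2 and 0.158 and 0 FPKM in the control, or 180 and 154 fragments against 3 and 0. Per fragment sequenced the ratio was 97.4, with an exact interval at 95% confidence of 33.1 to 475 that covers counting error only. The fitted difference of 3.84 depends on the pseudocount (± 0.14 SE, limma adjusted p = 1.22e-06). Cyba lies at chr8:122424776-122432930 in the deposited coordinates.

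Genes at the cell surface and in the matrix moved both ways. Of 32 matrix and protease genes, 6 rose and 5 fell, with 2, 2, 3 and 4 rises and 3 falls each without ΔUNG_2 replicate 1 or 2 or control replicate 1 or 2. The shed protease Adam12 had 3.93 and 4.35 FPKM in ΔUNG_2 and 1.27 and 1.48 FPKM in the control (log2 1.31 ± 0.10 SE, limma adjusted p = 0.00016), a stable rise. Sparc, an abundant matrix protein, had 129 and 127 against 195 and 210 FPKM (-0.66 ± 0.07), Adamts1 25.0 and 23.1 against 34.2 and 37.9 FPKM (-0.57 ± 0.08) and the plasminogen activator Plat 0.919 and 0.638 against 2.15 and 2.27 FPKM (-1.09 ± 0.16), all stable falls. Loxl2, which crosslinks collagen, rose by 1.42, lost without ΔUNG_2 replicate 1 (limma adjusted p = 0.0555). Hapln1, a link protein of hyaluronan, had 6.69 and 6.48 against 1.99 and 2.40 FPKM (1.40 ± 0.14). Of 31 adhesion genes, 1 rose (0, 1, 1 and 1 in the smaller fits) and 4 fell (1, 2, 2 and 1); the melanoma adhesion molecule gene Mcam had 54.1 and 54.5 against 75.2 and 79.2 FPKM (-0.50 ± 0.06), the only stable one. Gjb2, the gap junction protein connexin 26, had 43.0 and 44.3 against 18.9 and 21.1 FPKM (1.11 ± 0.10), a stable rise.

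Metabolic lists held fewer stable calls. In glycolysis and hypoxia, 5 of 39 genes rose and 1 fell, with a median of 0.28 against -0.01 for all genes. The count of rises rests on the control libraries: it was 1 without control replicate 1 and 13 without control replicate 2, and 0 and 1 without ΔUNG_2 replicate 1 or 2. Car9, a carbonic anhydrase induced by hypoxia, had 10.3 and 8.39 FPKM in ΔUNG_2 and 1.75 and 3.64 FPKM in the control (log2 1.68 ± 0.27 SE, limma adjusted p = 0.00526; 0.0512 without ΔUNG_2 replicate 1). The neuronal enolase gene Eno2 moved the other way, with 3.84 and 3.23 against 9.63 and 9.84 FPKM (-1.35 ± 0.13), a stable fall. Ldha had 568 and 571 against 390 and 531 FPKM and did not pass. Retinoid and steroid genes gave 4 rises (2, 2, 2 and 3 in the smaller fits) and no fall among 15. Aldh1a3, which makes retinoic acid, had 4.31 and 4.71 against 1.71 and 1.54 FPKM (1.23 ± 0.15), and Crabp2, which carries it to the nucleus, 4.92 and 6.19 against 2.27 and 2.26 FPKM (1.12 ± 0.15); both were stable. Of 37 cholesterol and fatty acid genes, 4 rose (2 in each of the smaller fits) and 2 fell (1, 0, 1 and 1). Of 46 lysosome and autophagy genes, 2 rose (1, 1, 1 and 2 in the smaller fits) and 8 fell, with 2, 1, 2 and 2 falls without ΔUNG_2 replicate 1 or 2 or control replicate 1 or 2. The cathepsin gene Ctsb had 93.1 and 92.9 against 163 and 157 FPKM (-0.78 ± 0.08) and was stable. Acsbg1, an acyl-CoA synthetase gene in no list, had 4.39 and 4.18 against 0.909 and 0.634 FPKM (1.92 ± 0.16, limma adjusted p = 0.0002), and Emid1 rose by 1.61, both stably.

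Genes of proliferation and DNA repair showed few calls. Of 57 G2 and mitosis genes, limma called none, with differences from -0.19 to 0.25 (3 had an unadjusted p under 0.05, and limma-voom on fragments called 0); the proliferation marker Mki67 had 65.7 and 70.5 FPKM in ΔUNG_2 and 65.7 and 67.5 FPKM in the control. Of 53 replication genes, 2 rose (1 in each of the smaller fits); of 31 genes of base excision and mismatch repair, Parp3 alone fell (0, 0, 0 and 1); of 46 genes of homologous recombination, the Fanconi pathway and the checkpoint, 2 rose (0, 0, 1 and 1). These shares lie near the background. The other enzymes that can remove uracil did not pass: Smug1 had 3.95 and 3.45 against 4.72 and 4.19 FPKM, Tdg 21.1 and 20.7 against 22.2 and 21.9 FPKM and Mbd4 4.35 and 4.95 against 5.19 and 4.56 FPKM. Of 46 nucleotide pool enzymes, 2 rose (0 in each of the smaller fits) and 2 fell (1, 0, 1 and 0), and of 33 genes of retroelement silencing and DNA methylation 1 rose (0, 0, 1 and 0) and 1 fell (0 in each). Cytosolic ribosomal proteins (3 rises among 73, 0 in each of the smaller fits) and respiratory chain subunits (2 among 56, 0 in each) were also near or under the background. Of 11 mitochondrially encoded genes limma called none, with 4 at an unadjusted p under 0.05, while limma-voom called 4. The remaining lists held 4 rises (2, 2, 2 and 3 in the smaller fits) among 25 receptor kinases and ligands, 2 rises (1, 2, 2 and 1) and 2 falls (1 in each) among 26 genes of TGF-beta, BMP, WNT and Notch signalling, and 1 rise (0 in each) and 2 falls (1, 0, 1 and 1) among 23 YAP and cytoskeleton targets. Of 32 proteasome subunits 3 rose (1 in each of the smaller fits) and 1 fell (0 in each), of 20 genes of cell cycle entry 2 rose (1 in each) and 1 fell (0, 0, 1 and 0 in the smaller fits), of 26 ion channels 4 rose (2, 2, 3 and 2) and 3 fell (1, 1, 2 and 1), of 10 imprinted genes 1 fell (0 in each), and of 4 germline genes none passed (1 at an unadjusted p under 0.05, 0 by limma-voom). Among the lists from mitosis to the mitochondrially encoded genes, no call was stable except the rise of the replication gene Gins3, with 9.48 and 8.86 against 4.88 and 5.30 FPKM (0.79 ± 0.11).

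**Figure D3:**
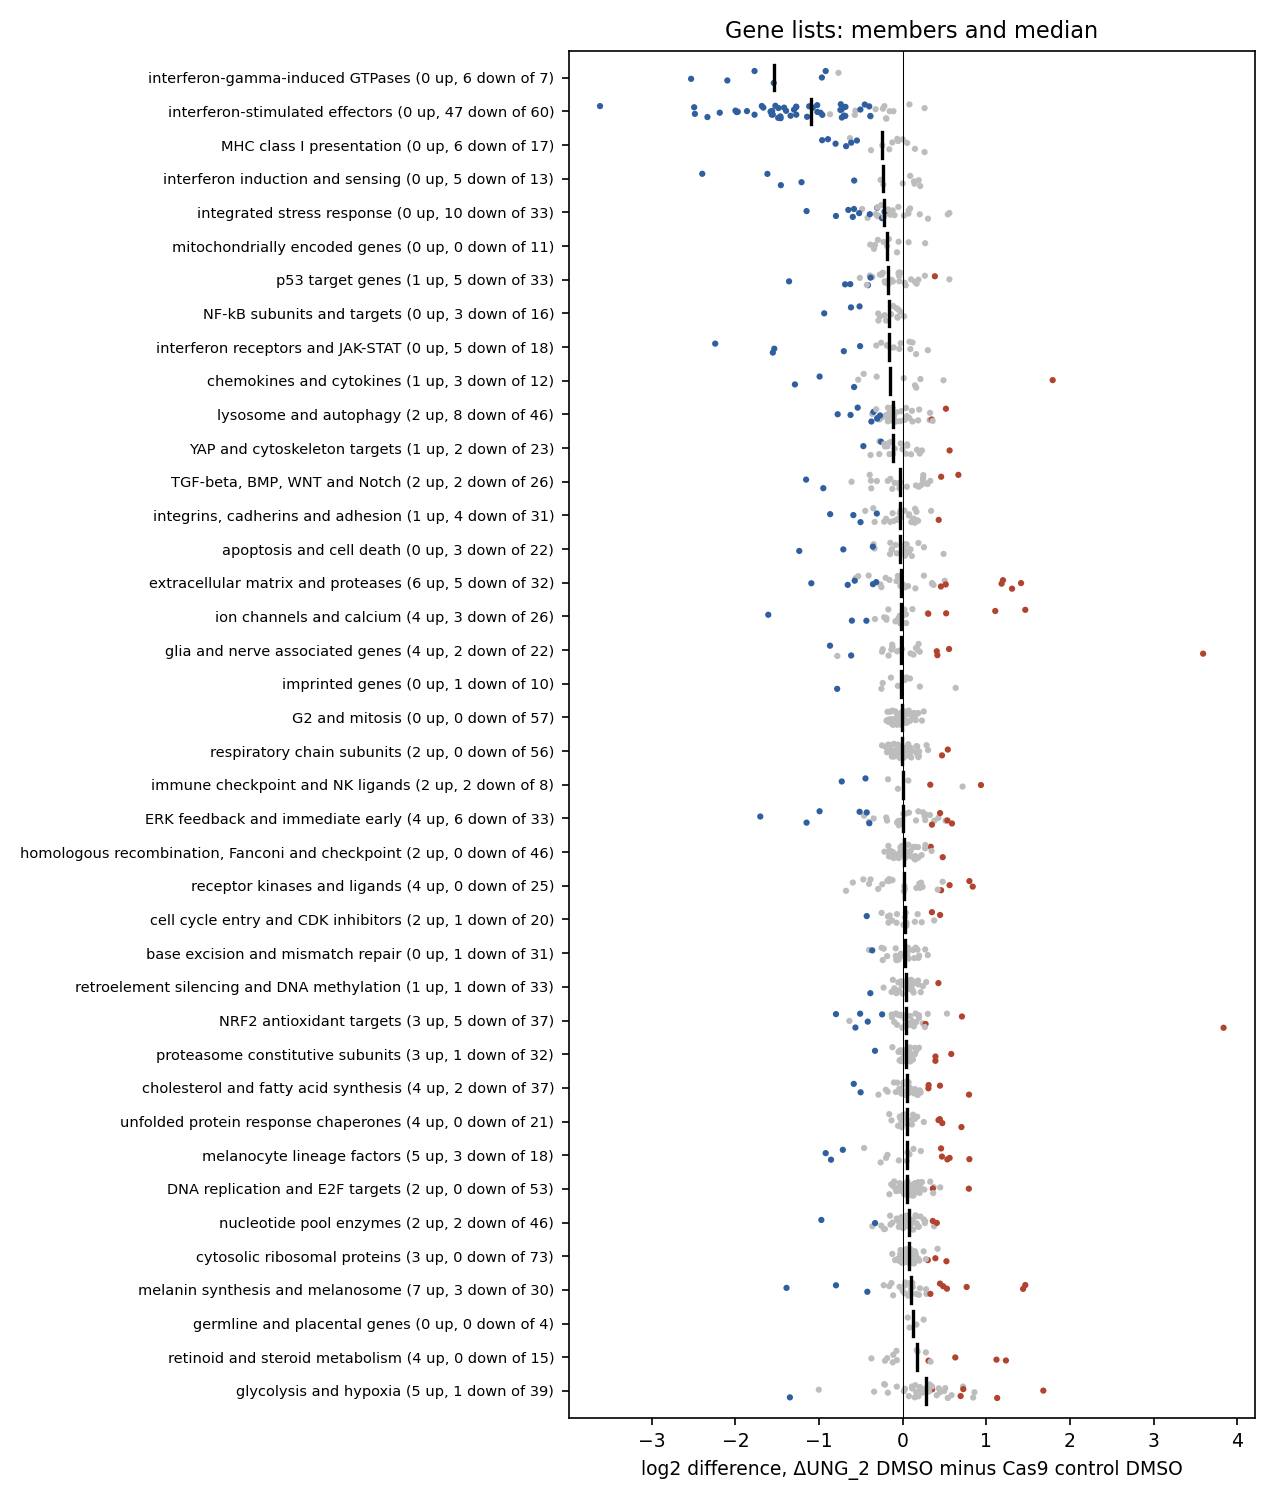
Log2 difference of ΔUNG_2 DMSO minus Cas9 control DMSO for each tested member of 40 gene lists, ordered by the list's median (black bar); red members were called higher, blue lower and grey neither, and counts stand beside each name. Interferon-gamma-induced GTPases (median -1.54) and interferon-stimulated effectors (median -1.10) lie apart from the others, whose medians run from -0.24 to 0.28.

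Position on the chromosomes was a further shared feature of the genes that rose. On chromosome 8, 136 of 627 genes tested rose (21.7%), and on chromosome 12, 74 of 432 (17.1%), against 4.51% over all genes. On the other chromosomes with called rises the share ran from 0.829% on X to 4.43% on chromosome 18. Together these chromosomes held 210 of the 507 rises. The split at 80 Mb was placed after the values were seen, so no test is given. On chromosome 8 the rises lay from 80 Mb onward, where 129 of 330 genes rose, 1 fell and the median was 0.34; before 80 Mb, 7 of 297 rose, 16 fell and the median was -0.03. On chromosome 12, 4 genes fell and the median was 0.23. Each ΔUNG_2 library set against each control library gave medians of 0.33 to 0.35 for chromosome 8 from 80 Mb, 0.22 to 0.25 for chromosome 12 and -0.02 for the other chromosomes. Under ATRi, with other libraries of the same lines, the medians of ΔUNG_2 minus control were 0.40, 0.21 and -0.02. In ΔUNG under DMSO, set against the same control libraries, they were 0.35, 0.25 and -0.02. A fit without these chromosome segments, added with the values known, called 268 genes higher, 361 lower, and 44 interferon-stimulated effectors lower. It left out the effectors that lie there, such as Ifi27 and Rsad2 on chromosome 12, both called lower in the main fit. Several genes in the lists above lie there. On chromosome 8 or 12 were all called rises of the proteasome (Psmd7, Psmc1, Psma6) and lysosome (Map1lc3b, Atp6v1d) lists. The same held for the respiratory chain (Cox4i1, Ndufb7), replication (Gins3, Rrm2) and retroelement silencing (Dnmt3a) lists. Other lists had part of their rises on these chromosomes, among them Rpl13, Rps7, Herpud1, Dnajb9, Egln1, Egln3, Fanca, Piezo1 and Mc1r. List counts without these chromosomes are not given here. Kifc3, a kinesin with 25.2 and 25.3 against 9.40 and 9.11 FPKM (log2 1.40 ± 0.09 SE, limma adjusted p = 4.01e-05), Cyba, Mvd, Gins3, Psmd7 and Map1lc3b are on chromosome 8, and Slc24a4 and Id2 on chromosome 12.

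**Figure D4:**
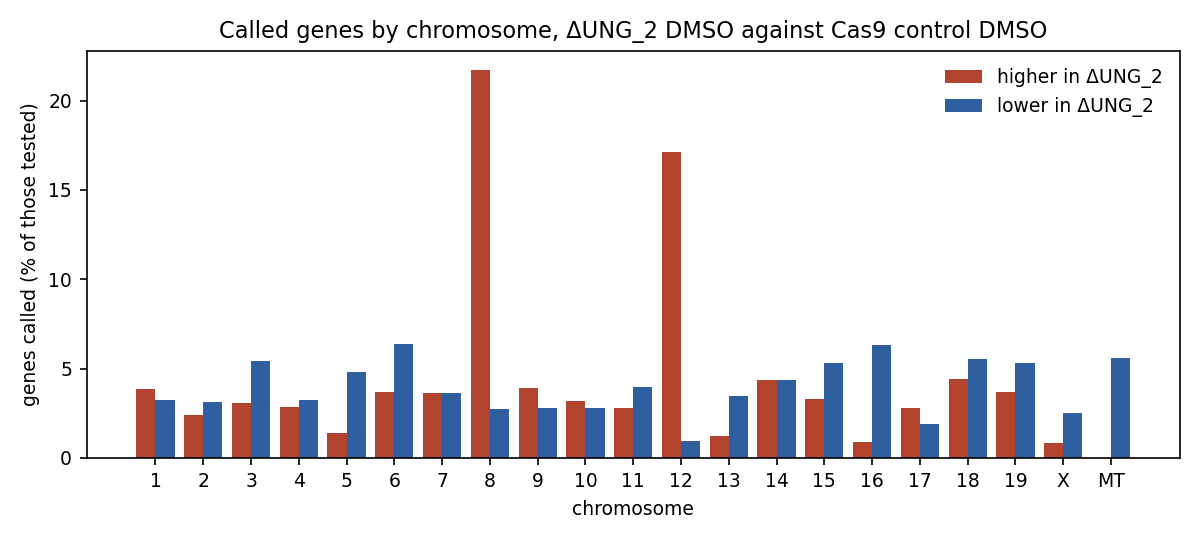
Share of tested genes called higher (red) and lower (blue) in ΔUNG_2 DMSO than in Cas9 control DMSO, by chromosome. Chromosomes 8 and 12 stand out, with 21.7% and 17.1% of genes higher; chromosome 12 has 0.926% lower.

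Set directly against the other knockout clone under DMSO, ΔUNG_2 differed in 5 genes (0.0445% of 11237; 685 had an unadjusted p under 0.05, and limma-voom on fragments called 11). Both comparisons with the control share its 2 libraries, so they are given side by side only. Over all genes, 5.42% were called higher and 3.25% lower in ΔUNG than in the control. Of the 60 interferon-stimulated effectors, 47 fell in ΔUNG_2 and 40 in ΔUNG. Of 39 glycolysis and hypoxia genes, 5 rose in ΔUNG_2 and 18 in ΔUNG. Of 30 melanin genes, 7 and 12 rose, and of 33 integrated stress response genes 10 and 5 fell. The direct test between clones called 0 members of each of these lists. Armcx1 fell against the control in ΔUNG_2 and not in ΔUNG: it had 2.40 and 2.57 FPKM in ΔUNG_2, 4.63 and 5.21 in ΔUNG and 4.62 and 5.29 in the control. The difference between clones was -0.86 ± 0.11 SE (limma adjusted p = 0.0456), lost without any 1 of these 4 clone libraries (0.148 to 0.391); Armcx1 was named after its values were seen.

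Under ATRi, the single ΔUNG_2 library differed from 2 control libraries in 556 genes (4.95%), with the spread taken from all groups. Of the 507 genes higher under DMSO, 158 (31.2%) were called higher and 459 (90.5%) had the same sign under ATRi; of the 425 lower, 125 (29.4%) were called lower and 341 (80.2%) had the same sign. Over all genes 63.6% did. On the log2 scale, the median ATRi difference was -1.78 for the 60 interferon-stimulated effectors and -2.24 for the 7 interferon-gamma-induced GTPases. For the 33 genes of the integrated stress response it was 0.049, and for the protein-coding genes tested 0.004. The number of genes called was 265 without control ATRi replicate 1, and 129 in a fit of only the 3 libraries compared. The test of the difference between both differences, added with the ATRi comparison after seeing the data, called 8 genes (0.0712%; 1379 had an unadjusted p under 0.05, and limma-voom on fragments called 73). Each of the 8 lost the call in at least 5 of the 6 fits that leave out 1 replicated library. Bst2, the tetherin gene whose promoter is printed above, had 23.6 and 23.1 FPKM in ΔUNG_2 and 73.6 and 68.1 FPKM in the control under DMSO, and 23.5 against 196 and 214 FPKM under ATRi. Its level in ΔUNG_2 was about the same in both treatments, and the DMSO difference minus the ATRi difference was 1.52 ± 0.20 SE (limma adjusted p = 0.0371; 0.0654 to 0.234 in those fits).

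**Figure D5:**
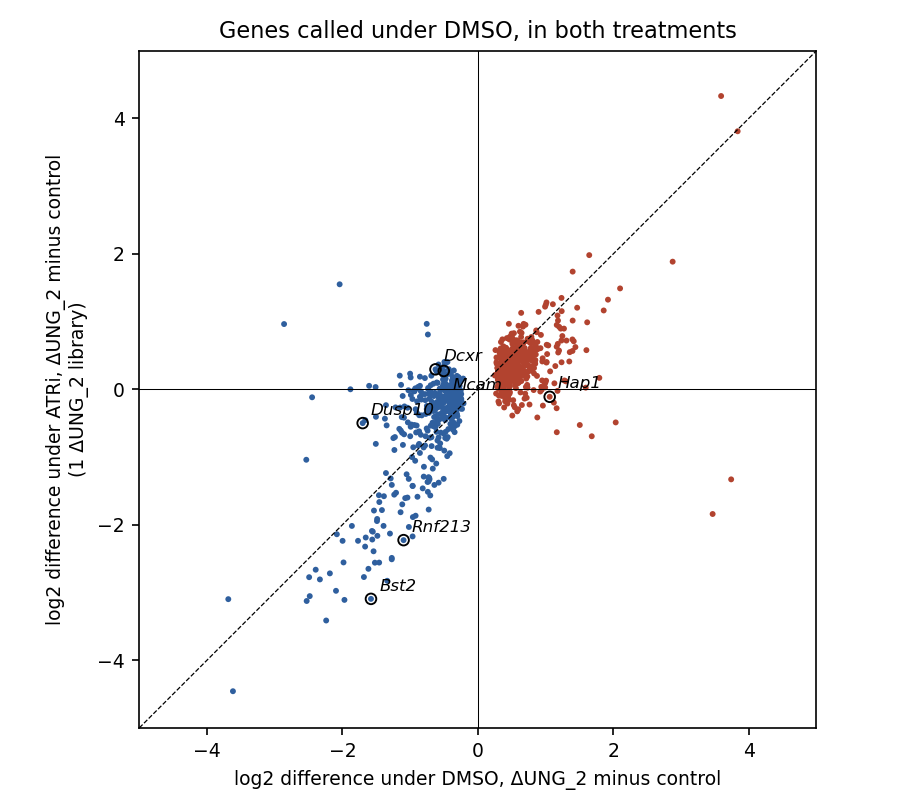
Log2 difference of ΔUNG_2 minus control under ATRi (vertical axis, 1 ΔUNG_2 library) against that under DMSO (horizontal axis) for the 932 genes called under DMSO; red were higher and blue lower. Rings mark those of them whose differences differed between treatments, such as Bst2 with -1.58 under DMSO and -3.10 under ATRi; the dashed line marks equal values.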

How the data were processed

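RNA was measured in 11 libraries of B16F10 cells; per the labels' protocols a company prepared and sequenced them. Reads were mapped with HISAT2, per the submitters' processing notes. The version, the counter, the build and the annotation were not given in the sources used here. FPKM per gene and library were deposited by the authors in 1 table. Counts of clean reads, and the percentage of bases at Q30 and of G or C, came in a table deposited by the authors, of which 1 row names no sample used here. All FPKM were whole numbers of fragments (within 0.01) once gene length and depth were undone, which gave the fragments behind each value. Date-like entries in place of 19 symbols were replaced through their gene identifiers.

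The fit used limma 3.58.1 (R 4.3.3) and the values log2(FPKM + 0.5) of genes that averaged 0.5 FPKM or more over the 4 libraries, with a mean per group over all 11 libraries, an intensity trend and 5 residual degrees of freedom. Tests were two-sided, with Benjamini-Hochberg adjustment over all genes and a threshold of 0.05. A fold change on this scale understates the change of low genes. The model was tested on simulated data. Figures were drawn with Python 3.11.15 and matplotlib 3.10.9. Libraries with the same replicate number did not deviate together (correlation of their deviations -0.006 for ΔUNG_2 and the control, -0.137 to 0.043 over all pairs of groups), so the numbers were not used as pairs.

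Named genes were Ung, the 12 largest rises and falls among called genes of at least 1 FPKM and 200 bases whose groups did not overlap (predicted genes and pseudogenes left out), up to 4 called members of each list by adjusted p, and list-defining members that did not pass. The members and the 46 lists, 6 of them cell type markers, were chosen with earlier results of these data known. Alternatives covered pseudocount, filters, scaling, limma-voom on fragments, a minimum fold change of 1.2, the replicate block and leaving out each library. Some results are not reported here.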

Additional observations from a re-analysis of the deposited data

Results flagged for a closer look

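Under DMSO, 5 genes differed between the knockout clones by the limma test of that difference, and all lost the call in at least 1 fit that left out a library. Pcdhgb1, a protocadherin gene that shares exons with its cluster, had 1.67 and 2.32 FPKM in ΔUNG_2 and 0.361 and 0.438 FPKM in ΔUNG, a log2 difference of 1.46 ± 0.18 SE (limma adjusted p = 0.0456). Gm43549, a predicted gene, had 14.5 and 15.4 against 6.88 and 7.86 FPKM (0.97 ± 0.09, limma adjusted p = 0.0143). Armcx1 had the difference of -0.86 given above. Smg9, a factor of nonsense-mediated decay, had 10.4 and 11.9 against 20.4 and 19.1 FPKM (-0.80 ± 0.08, limma adjusted p = 0.0143), and Pla2g2e, a secreted phospholipase gene, 22.9 and 23.5 against 46.6 and 40.1 FPKM (-0.88 ± 0.09, limma adjusted p = 0.0176). The control had 10.6 and 10.4 FPKM of Smg9 and 20.6 and 19.3 FPKM of Pla2g2e, closer to ΔUNG_2.

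Between treatments, 8 genes had a ΔUNG_2 minus control difference that differed between DMSO and ATRi, each with a limma adjusted p of 0.0371, and 7 of them are described here. The values are the DMSO difference minus the ATRi difference, and the ATRi one rests on 1 ΔUNG_2 library. Bst2 (1.52 ± 0.20), Rnf213 (1.13 ± 0.14), a large ubiquitin ligase gene, and Slfn9 (1.39 ± 0.15), a Schlafen family gene, were less reduced under DMSO than under ATRi. Slfn9 had 7.85 and 8.19 FPKM in ΔUNG_2 and 9.37 and 9.68 FPKM in the control under DMSO, and 2.52 against 9.56 and 8.14 FPKM under ATRi. Hap1 (1.17 ± 0.15) had 38.2 and 35.8 FPKM in ΔUNG_2 and 19.6 and 15.6 FPKM in the control under DMSO, and 32.7 against 36.0 and 34.7 FPKM under ATRi. Dusp10 (-1.20 ± 0.15), Mcam (-0.77 ± 0.09) and Dcxr (-0.92 ± 0.12) were called lower in ΔUNG_2 under DMSO.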

How the results depend on the processing

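At the same FPKM sum, calls turned to 122 higher and 276 lower, lineage factors to 1 and 3 and glia genes to 1 and 3. The medians of several lists changed sign there: melanin 0.095 became -0.029, lineage factors 0.055 became -0.074, ERK genes 0.01 became -0.115, unfolded protein response 0.054 became -0.08 and cholesterol 0.051 became -0.077. No single named gene, nor Ung, changed sign under the alternatives run. The count of genes past the threshold, 932, was 398 at the same FPKM sum and 195 with a minimum fold change of 1.2, and 286 to 392 with 1 library left out; with the replicate block it was 803, and the other alternatives stayed within 1.5 times. Interferon-stimulated effectors stayed between 32 and 48, and Ung did not pass in any setting (-0.51 to -0.31, limma adjusted p 0.0996 to 1). The 5 genes between clones became 3 with a pseudocount of 0.1, without the intensity trend or with median-ratio scaling, 1 without the filter or with only the 4 libraries compared, 10 at the same FPKM sum, 11 with limma-voom, and 0 with the replicate block or the minimum fold change; leaving out 1 library gave 0 to 5. The ATRi comparison and the test between treatments were chosen after seeing the data. The 556 genes under ATRi became 129 with only the libraries compared, 365 with the replicate block, 177 at the same FPKM sum, 1105 with limma-voom, 124 with the minimum fold change, 310 without chromosome 12 and chromosome 8 from 80 Mb, and 265 to 712 with 1 library left out. The 8 genes between treatments became 14 without the filter, 3 without the intensity trend, 73 with limma-voom, 0 with the replicate block or the minimum fold change, and 0 to 9 with 1 library left out. Where a cause is not part of the setting itself, the cause was not tested. Of single-gene results, 274 lost the call and 334 kept it when 1 library was left out, against 238 and 1789 under other settings. With 2 libraries a group, small changes rest on both. For a gene length of 1 kb, levels near 0.164 FPKM are at the detection limit, which is lower for longer genes.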
